A study of Mus musculus with 4 samples.

Results

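Calcium-binding S100 proteins and annexins were followed in blood T cells of tumor-bearing mice, as 10 genes among the 27998 listed in each table. The genes were taken by symbol: S100a4, S100a6, S100a10, S100a11 and S100a13, the annexin genes Anxa1, Anxa2, Anxa5 and Anxa6, and Ahnak. All 10 had counts in each of the 4 libraries. Transcripts had been counted in single cells with the 10x Chromium 3′ kit, in T cells enriched from the blood of female C57BL/6 mice. The mice were aged 6 to 8 weeks at the start of the experiment. The blood was taken 18 days after the mice had received MC-38 cells, a colorectal tumor line of the same strain. The 4 groups had 1 library each. Untreated mice received no immunotherapy. The anti-PD-L1 group received a blocking antibody to PD-L1, the ligand of the inhibitory receptor PD-1, on days 10, 13 and 17. The anti-OX40/CpG group, labelled OX40 alone, received an agonistic antibody to the costimulatory receptor OX40 with CpG, a ligand of Toll-like receptor 9, on day 7. The PDOX group received both regimens. All groups shared the tumor, and none was free of it. Mouse, library and treatment cannot be told apart here, so treatments are compared without a p-value and intervals cover counting error only. In sums over a gate, fewer cells that express a gene and less RNA per cell cannot be told apart. Where 4 values stand in a row, the order is untreated, then anti-PD-L1, then anti-OX40/CpG and last PDOX.

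S100 proteins are small EF-hand proteins that mostly act as dimers and, on binding calcium, expose a surface that holds partner proteins. Annexins bind phospholipid membranes in the presence of calcium, and several of them carry an S100 dimer: S100A10 (p11) binds annexin A2 with no need for calcium, S100A11 binds annexin A1, and S100A6 binds annexin A2 among others. AHNAK is a giant scaffold protein that associates with the annexin A2 and S100A10 complex at the plasma membrane, where this machinery takes part in exocytosis and membrane repair. In T cells, S100A4 and S100A10 transcripts are commonly listed among those higher in antigen-experienced cells, while monocytes are rich in several S100 proteins and annexins.

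In the GRCm38.p6 annotation of RefSeq, the 5 S100 genes lie on chromosome 3: S100a13 at chr3:90514233-90524581, S100a4 at chr3:90603770-90606045, S100a6 at chr3:90612894-90614414, S100a11 at chr3:93520496-93526288 and S100a10 at chr3:93555117-93564645. S100a4 and S100a6 are 6.85 kb apart, S100a13 and S100a4 79.2 kb, S100a11 and S100a10 28.8 kb, and the 2906 kb between S100a6 and S100a11 part the genes into separate neighborhoods. Anxa5 also lies on chromosome 3 (chr3:36448923-36475887), Anxa2 on chromosome 9 (chr9:69453683-69491792), Anxa6 on chromosome 11 (chr11:54978953-55033471), and Ahnak (chr19:8989284-9076935) and Anxa1 (chr19:20373434-20390671) on chromosome 19. Promoter windows, from 250 bases before to 50 bases after the start, were found in RefSeq for 8 of the 10 genes. The windows of S100a4, S100a6 and Anxa2, which showed the largest differences between effector-marked and naive-marked T cells below, are printed. The window of Anxa5, for which this difference did not pass the test in either lineage, is printed with them. They are given 5′ to 3′ on the strand of the gene, at chr3:90603520-90603819 (plus), chr3:90612644-90612943 (plus), chr9:69453433-69453732 (plus) and chr3:36475838-36476137 (minus). Capitals mark matches to any of 6 short motifs on either strand, so that a match on the opposite strand reads as its reverse complement.
S100a4: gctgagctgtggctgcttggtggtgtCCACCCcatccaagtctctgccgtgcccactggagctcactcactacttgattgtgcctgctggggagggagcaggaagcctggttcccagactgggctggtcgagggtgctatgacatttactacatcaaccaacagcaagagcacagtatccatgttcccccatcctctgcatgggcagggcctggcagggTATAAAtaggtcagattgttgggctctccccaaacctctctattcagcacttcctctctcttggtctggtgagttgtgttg
S100a6: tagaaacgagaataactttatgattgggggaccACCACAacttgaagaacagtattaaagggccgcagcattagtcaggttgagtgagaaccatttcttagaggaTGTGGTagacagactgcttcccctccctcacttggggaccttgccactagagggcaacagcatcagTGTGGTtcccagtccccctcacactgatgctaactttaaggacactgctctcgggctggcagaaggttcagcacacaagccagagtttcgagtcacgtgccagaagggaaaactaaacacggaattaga
Anxa2: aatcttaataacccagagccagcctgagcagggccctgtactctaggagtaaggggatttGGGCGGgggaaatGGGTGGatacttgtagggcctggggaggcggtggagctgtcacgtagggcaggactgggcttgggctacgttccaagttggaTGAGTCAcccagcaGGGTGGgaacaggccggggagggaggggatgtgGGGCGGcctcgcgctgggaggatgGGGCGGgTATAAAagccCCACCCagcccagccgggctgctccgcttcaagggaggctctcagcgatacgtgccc
Anxa5: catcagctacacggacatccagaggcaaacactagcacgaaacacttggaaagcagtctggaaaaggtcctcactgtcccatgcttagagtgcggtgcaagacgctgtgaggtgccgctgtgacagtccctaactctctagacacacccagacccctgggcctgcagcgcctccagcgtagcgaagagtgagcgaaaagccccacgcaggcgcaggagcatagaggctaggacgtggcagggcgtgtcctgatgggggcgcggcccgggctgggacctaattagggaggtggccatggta

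Of all 32851 RefSeq windows of this length, 13.6% hold the TATA box motif TATAAA and 35.7% the GC box motif GGGCGG. The letters CCACCC, bound by Krüppel-like factors, occur in 31.5% and the AP-1 motif TGANTCA occurs in 7.81%. The core of RUNX sites, TGTGGT, occurs in 16.8% and the T-box motif TCACACC in 3.98%. S100a4 had TATAAA 31 bases before its start and CCACCC at 224. S100a6 had TGTGGT at 217, 145 and 79 bases before the start and no TATAAA. Anxa2 had all of TATAAA (17), GGGCGG (190, 48 and 24), CCACCC (177, 81 and 7) and TGANTCA (95), while Anxa5 had none of the 6. Outside the printed windows, Anxa1 had TATAAA, S100a11 had GGGCGG and TGANTCA, S100a13 had CCACCC and TCACACC, and Ahnak had GGGCGG and CCACCC. No motif was shared by all 8 windows, no matches overlapped, and the GC content ranged from 47.3% in Anxa1 to 67.3% in Ahnak around a median of 52.7% over all windows.

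Of 5434 deposited cells, 5299 had at least 200 genes and were kept, between 784 in the untreated and 1559 in the anti-OX40/CpG library. The median kept cell held 1434 to 1618 unique molecular identifiers (UMIs, which count single transcripts), so that a level of 1 UMI per 10000 leaves most cells without a UMI. Hemoglobin genes took 7.99% of all untreated UMIs and 0.344% to 1.70% in the other libraries. Among the kept cells, 14 barcodes occurred in more than 1 library. CD8 T cells were gated by Cd3 UMIs with Cd8a or Cd8b1 and no Cd4 (1610 cells; 234, 457, 552 and 367 by library) and CD4 T cells by the reverse (665 cells, 77, 138, 223 and 227). The gates for NK cells (48), monocytes (84) and B cells (84) were small, and 2808 cells fell in no gate. Within the T cell gates, cells were called effector-marked when they held UMIs of at least 2 of 13 effector genes such as Id2, Cxcr3 and Gzma and of more effector than naive genes, and naive-marked by the reverse with 8 naive genes such as Ccr7 and Lef1. None of the S100, annexin or Ahnak genes took part in a gate. Effector-marked cells made up 2.99%, 10.7%, 25.5% and 51.8% of the CD8 T cells and 5.19%, 5.80%, 29.1% and 53.3% of the CD4 T cells by library.

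The CD8 and CD4 T cells of the PDOX library held the highest levels of most of these genes. The levels were highest in PDOX for 9 of the 10 genes in CD8 T cells, all but Anxa5, and for 9 of 10 in CD4 T cells, all but Anxa2. The 95% interval of the PDOX to untreated ratio lay above 1 for 8 genes in CD8 and 9 in CD4 T cells, each with at least 50 UMIs over the 4 libraries, against 7.27% and 6.85% of all genes with as many UMIs. Among genes with at least 50 UMIs over the 4 libraries, 13% of 5945 genes in CD8 and 18.9% of 3430 genes in CD4 T cells were at least 1.5-fold higher in PDOX than in untreated cells. The corresponding count was 8 of 9 in CD8 T cells, where Anxa1 had too few UMIs to enter, and 9 of 10 in CD4 T cells. PDOX was the highest of the 4 libraries for 26.2% and 27.3% of all such genes, against 8 of 9 and 9 of 10 here. All ratios share the 1 untreated library. Several depended on the limit on B cell and myeloid markers in the T cell gates, as given by gene below. Lyz2, one of these myeloid markers, was found in 19.7% of untreated and 6.81% of PDOX CD8 T cells. In CD4 T cells it was found in 28.6% and 3.08%, and its part in the ratios was not tested.

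**Figure D1:**
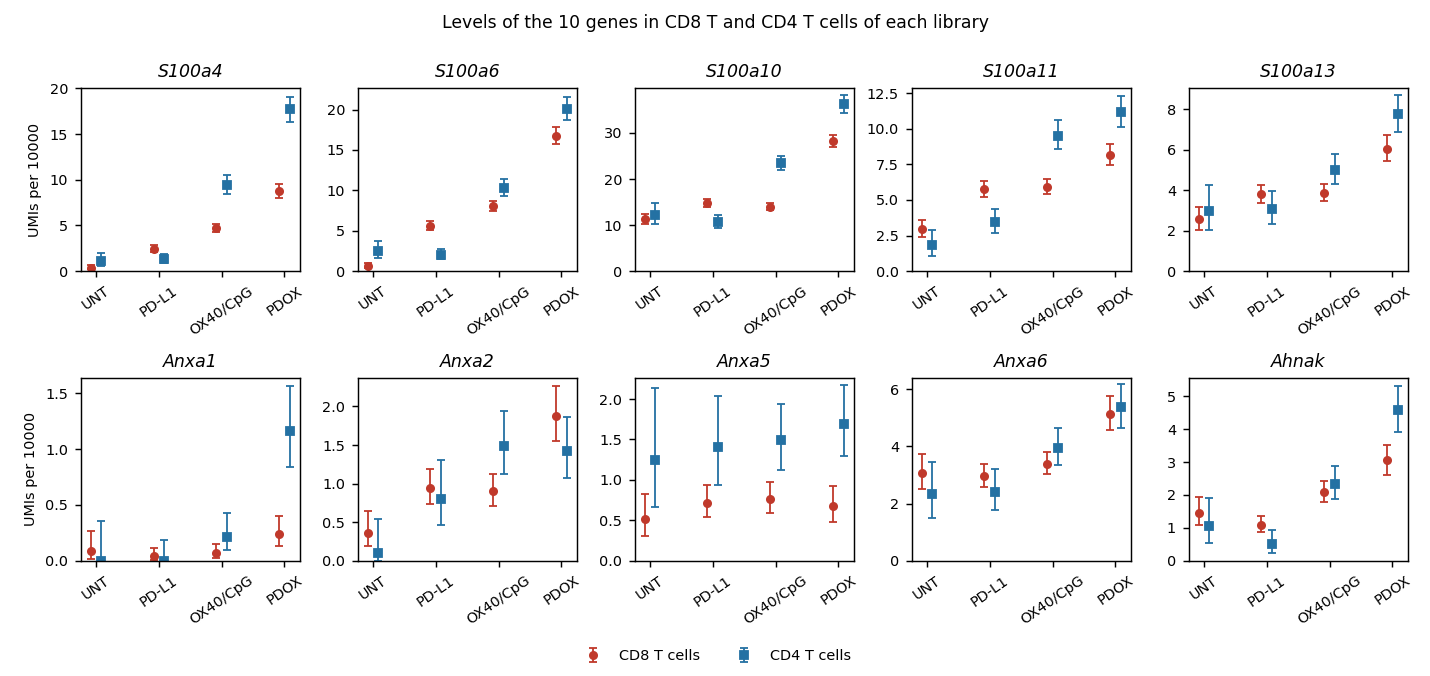
Level of each gene (UMIs per 10000, linear axis from 0, one scale per panel) in the CD8 T and CD4 T gates of the untreated (UNT), anti-PD-L1 (PD-L1), anti-OX40/CpG (OX40/CpG) and PDOX libraries, with exact 95% Poisson intervals as bars. PDOX is the highest library for 9 of the 10 genes in either lineage, and the S100a4 level in CD8 T cells ranges from 0.366 in the untreated to 8.74 in the PDOX library.

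S100A4 binds non-muscle myosin and other motility proteins. In CD8 T cells, S100a4 held 0.366, 2.47, 4.72 and 8.74 UMIs per 10000, from 12 UMIs in the untreated to 516 in the PDOX library. The intervals of the 4 libraries did not overlap, and the PDOX level was 23.9 times (13.6 to 46.6) the untreated one. In CD4 T cells the levels were 1.16, 1.31, 9.47 and 17.7 UMIs per 10000, with untreated and anti-PD-L1 cells alike in the low range and a PDOX to untreated ratio of 15.3 (8.67 to 29.7). Cells with an S100a4 UMI made up 2.14%, 7.44%, 14.7% and 30.8% of the CD8 T cells and 6.49%, 5.07%, 25.6% and 48.5% of the CD4 T cells. B cells, which served as a background class with a median of 1123 UMIs against 1576 in CD8 and 1528 in CD4 T cells, held an S100a4 UMI in 2 of 84 cells (2.38%, Clopper-Pearson interval 0.290% to 8.34%). The shares of untreated and anti-PD-L1 cells of both lineages lay within this wide interval. In the untreated library, effector-marked cells held 10 of the 12 S100a4 UMIs of CD8 and 11 of the 12 of CD4 T cells. Their levels were 9.99 and 17.1 UMIs per 10000, against 0.21 in all B cells. Effector-marked cells also held 17 of the 26 UMIs of anti-PD-L1 CD4 T cells. In cells thinned to 750 UMIs, the shares were 1.92%, 5%, 13.4% and 26.4% for CD8 and 4.55%, 4.80%, 20.7% and 43.3% for CD4 T cells.

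S100A6 (calcyclin) is a close relative that binds annexins and cytoskeletal proteins. S100a6 held 0.701, 5.65, 8.03 and 16.7 UMIs per 10000 in CD8 T cells, in steps larger than the intervals, and the PDOX to untreated ratio was again 23.9 (15.8 to 37.8). Of the 426 UMIs in the anti-PD-L1 library, 85 came from 38 CD8 T cells in neither marked class. Only 5 of these cells held a UMI of S100a4 or S100a6, and the intervals do not cover such a spread between cells. The CD4 T cell levels were 2.51, 2.06, 10.3 and 20.1, with overlapping intervals for the untreated and anti-PD-L1 libraries. The ratio was 8 (5.42 to 12.3), with 12.6 in thinned cells and 2.9 in cells with at least 2 coreceptor UMIs. A UMI of S100a6 was found in 4.70%, 11.2%, 23.2% and 42.2% of CD8 and 7.79%, 9.42%, 33.2% and 52.9% of CD4 T cells, against 2.38% of B cells. The size of both ratios depended on the T cell gate: with no limit on B cell and myeloid markers, which let in cells with transcripts of those lineages, they were 7.43 for S100a4 and 8.56 for S100a6 in CD8 and 5.64 and 1.55 in CD4 T cells.

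S100A10 holds annexin A2 at the membrane, S100A11 pairs with annexin A1, and S100A13 takes part in the unconventional secretion of growth factors. Each of the 3 genes had at least 84 UMIs in untreated CD8 T cells. S100a10 held 11.3, 14.7, 14 and 28.2 UMIs per 10000 in CD8 T cells, with PDOX above the other 3 libraries, and 12.3, 10.7, 23.5 and 36.3 in CD4 T cells, where anti-OX40/CpG lay between. The PDOX to untreated ratio was 2.5 (2.23 to 2.81) in CD8 and 2.94 (2.45 to 3.56) in CD4 T cells, with 2.06 in CD4 T cells without the marker limit and 1.8 in those with at least 2 coreceptor UMIs. An S100a10 UMI was found in 71.8%, 73.7%, 71.2% and 85.3% of CD8 T cells and in 51.2% of B cells. S100a11 held 2.96, 5.75, 5.92 and 8.16 UMIs per 10000 in CD8 T cells, with anti-PD-L1 and anti-OX40/CpG within each other's intervals. Of its 434 UMIs in the anti-PD-L1 library, 92 came from the 38 CD8 T cells in neither marked class. In CD4 T cells, its levels were 1.83, 3.47, 9.52 and 11.2, and the ratio of 6.08 (3.85 to 10.2) was 1.04 without the marker limit and 3.01 with at least 2 coreceptor UMIs. S100a13 held 2.56, 3.81, 3.87 and 6.06 in CD8 and 2.99, 3.07, 5.02 and 7.77 UMIs per 10000 in CD4 T cells, with ratios of 2.37 (1.86 to 3.04) and 2.60 (1.79 to 3.89).

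Annexin A2 is the partner of S100A10 at the membrane, and Anxa2 was sparse in T cells. It held 0.366, 0.941, 0.901 and 1.88 UMIs per 10000 in CD8 T cells, lowest in untreated and highest in PDOX cells, with a ratio of 5.14 (2.83 to 10.3). In CD4 T cells it held 0.0965, 0.805, 1.49 and 1.42 UMIs per 10000, and the anti-OX40/CpG and PDOX libraries were within each other's intervals. The untreated value was 1 UMI, so the ratio of 14.8 spanned 2.54 to 594, and without the marker limit it was 0.605. Annexin A1, which limits inflammation through formyl peptide receptors, was rarer still. Anxa1 had 3, 3, 6 and 14 UMIs in the CD8 T cells of the 4 libraries, and the ratio of 2.59 had an interval from 0.724 to 14.1. In CD4 T cells, Anxa1 had 0, 0, 8 and 43 UMIs. The PDOX level of 1.16 UMIs per 10000 was at least 3.99-fold higher than the untreated one, counted against 3 UMIs, the limit that a count of 0 allows. The conditional interval, which also covers the counting error of the 43 UMIs, starts at 3.11-fold. All 43 PDOX UMIs came from 23 of 227 cells (10.1%).

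Annexin A5, known for binding phosphatidylserine, and annexin A6, which has a doubled annexin core and links membranes to the cytoskeleton, are calcium-dependent membrane binders. Anxa5 held 0.518, 0.716, 0.765 and 0.678 UMIs per 10000 in CD8 T cells and 1.25, 1.41, 1.49 and 1.69 in CD4 T cells. All intervals overlapped within a lineage, and the ratios of 1.31 (0.725 to 2.46) and 1.35 (0.735 to 2.67) covered 1. Anxa6 held 3.08, 2.96, 3.39 and 5.15 in CD8 and 2.32, 2.42, 3.96 and 5.38 UMIs per 10000 in CD4 T cells, higher in PDOX than in untreated cells by 1.67 (1.33 to 2.12) and 2.32 (1.52 to 3.71). In thinned CD8 T cells the Anxa6 ratio was 1.17. The scaffold gene Ahnak held 1.46, 1.09, 2.08 and 3.05 UMIs per 10000 in CD8 T cells and 1.06, 0.503, 2.33 and 4.57 in CD4 T cells. The anti-PD-L1 library was the lowest in both lineages, and the PDOX to untreated ratios were 2.08 (1.51 to 2.93) and 4.31 (2.35 to 8.79).

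Within a marked class, fewer genes had a PDOX to untreated interval above 1. Each class holds fewer UMIs than its gate, so fewer intervals can exclude 1, and these counts cannot be set against those of the gates. In naive-marked CD8 T cells, S100a4 held between 0.0685 and 0.435 UMIs per 10000 in the 4 libraries, S100a6 between 0.233 and 1.11 and S100a10 between 9.84 and 12.1. The anti-OX40/CpG to untreated ratio was 6.35 (1.58 to 55.3) for S100a4, 4.65 (2.13 to 12) for S100a6 and 1.45 (1.12 to 1.9) for S100a11. The anti-PD-L1 to untreated ratio was 1.52 (1.18 to 1.99) for S100a11 and 0.459 (0.276 to 0.761) for Ahnak. All other intervals against the untreated library covered 1 in this class. The PDOX to untreated interval lay above 1 for 0 of the 10 genes there, 8 of which had at least 50 UMIs in the class. The share was 4.02% of 4721 genes with as many UMIs. In effector-marked CD8 T cells, S100a4 held 9.99, 16.5, 15.8 and 15.2 UMIs per 10000, with overlapping intervals. S100a6 held 15, 31, 25.7 and 28.7 and S100a10 26, 37, 25.5 and 40.6. Of the 9 genes with at least 50 UMIs in this class, these were the 2 with a ratio interval above 1, against 1.17% of 2219 genes. The untreated values rest on 7 effector-marked CD8 T cells. Where the class levels pooled over libraries were weighted by the share of UMIs that each class took in a library, 29 of 40 values in CD8 and 26 of 40 in CD4 T cells fell inside the interval of the measured level. For S100a4 in CD8 T cells this gave 0.781 against 0.366 measured in the untreated and 8.75 against 8.74 in the PDOX library, and for S100a10 in PDOX 23.9 against 28.2. The pooled levels include each library's own cells, and PDOX gave 495 of the 1071 S100a4 UMIs of effector-marked CD8 T cells. The weighted values are therefore no independent prediction, and the wide intervals of sparse genes take in many values. Among effector-marked CD4 T cells, 0 of the 9 genes with at least 50 UMIs had a ratio interval above 1, against 1.30% of 1304 genes. The untreated values there rest on 4 cells. The naive-marked class had 3 of the 6 genes with as many UMIs, against 4.64% of 2114 genes. S100a6 (0.104, 0.237, 2 and 3.17 UMIs per 10000), S100a10 (8.60, 8.73, 9.11 and 12.1) and S100a11 (1.24, 1.90, 3.34 and 3.79) were higher in PDOX than in untreated naive-marked CD4 T cells.

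**Figure D2:**
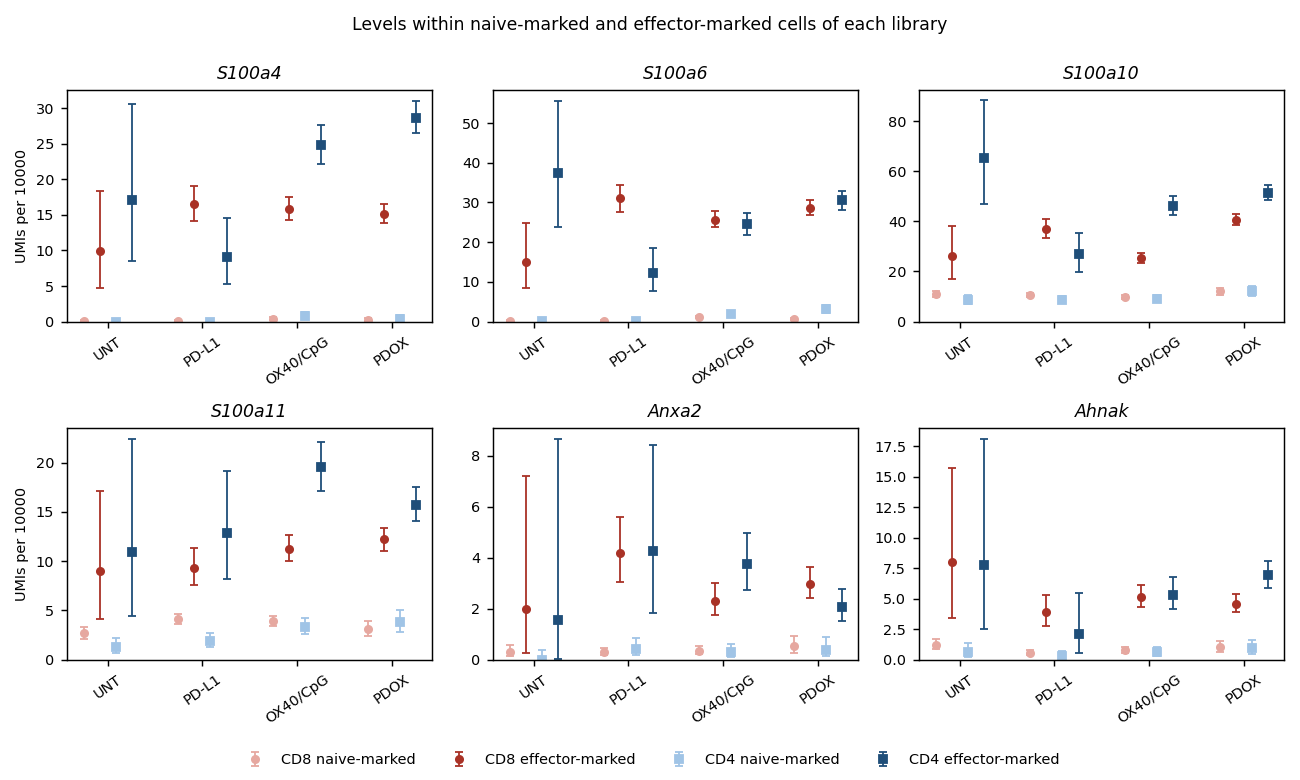
Level (UMIs per 10000, linear axis from 0, one scale per panel) of S100a4, S100a6, S100a10, S100a11, Anxa2 and Ahnak in naive-marked (pale) and effector-marked (dark) T cells of either lineage, by library (UNT is untreated, PD-L1 is anti-PD-L1), with exact 95% Poisson intervals as bars. In CD8 T cells the effector-marked points of S100a4 (9.99 to 16.5) lie above all naive-marked points (0.0685 to 0.435), and the untreated effector-marked points, from 7 CD8 and 4 CD4 T cells, have wide intervals.

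To compare the classes across libraries, UMIs were summed per library and class and tested with the library as a block. In CD8 T cells, 9 of the 10 genes were higher in the effector-marked cells, all but Anxa5, against 8.20% of the 4949 genes tested. The median log2 fold change was 2.13 over the 10 genes and −0.02 over all genes. S100a4 had the largest change, 6.06 ± 0.23 (log2 fold change ± standard error; edgeR quasi-likelihood test with Benjamini-Hochberg adjustment, adjusted p = 4.1e-151), from a mean of 0.209 to 15.5 UMIs per 10000. S100a6 followed with 5.52 ± 0.21 (edgeR, adjusted p = 2.6e-147), from 0.559 to 27.1. These p-values rest on a variance shared between genes, and DESeq2 gave 6.21 with an adjusted p of 1e-51 for S100a4. Both genes were higher in effector-marked cells in 4 of 4 libraries.

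The genes of annexin A2 and its partners were also higher in effector-marked CD8 T cells. Anxa2 rose by 3.11 ± 0.24 on the log2 scale (edgeR, adjusted p = 5.5e-36) and Ahnak by 2.64 ± 0.19 (edgeR, adjusted p = 2.5e-39), each in 4 of 4 libraries. S100a10, the partner of Anxa2, rose by 1.59 ± 0.16, S100a11 by 1.62 ± 0.16 and S100a13 by 1.37 ± 0.16, with means of 34.7 against 11, 11.2 against 3.48 and 7.78 against 2.94 UMIs per 10000. The smallest increase called was that of Anxa6, 0.91 ± 0.16 (edgeR, adjusted p = 8.5e-07, 4 of 4 libraries). Anxa1 rose by 2.97 ± 0.89 (edgeR, adjusted p = 0.0086) but held 20 UMIs in all effector-marked and 5 in all naive-marked CD8 T cells, and without the anti-OX40/CpG library its change of 2.77 was not called (edgeR, adjusted p = 0.122). Anxa5 changed by 0.43 ± 0.29 (edgeR, adjusted p = 0.36), with 0.712 against 0.650 UMIs per 10000.

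CD4 T cells gave a similar list. The untreated library had 4 effector-marked CD4 T cells and was left out, so 3 libraries entered. Of the 9 genes that could be tested, 8 were higher in effector-marked cells, again all but Anxa5 (0.46 ± 0.31; edgeR, adjusted p = 0.40), against 5.64% of 3118 genes. Their median was 2.37, and −0.02 over all genes. S100a4 changed by 5.48 ± 0.26 (edgeR, adjusted p = 3.9e-18; 0.421 to 21.5 UMIs per 10000), S100a6 by 3.64 ± 0.20, Anxa2 by 3.17 ± 0.35 and Ahnak by 2.96 ± 0.27 (edgeR, adjusted p = 1e-10), each in 3 of 3 libraries. S100a11 changed by 2.37 ± 0.17, S100a10 by 2.05 ± 0.15 and S100a13 by 1.25 ± 0.19. Anxa6 changed by 1.13 ± 0.21 (edgeR, adjusted p = 0.00016), but DESeq2 gave 1.02 with an adjusted p of 0.112, and without the anti-OX40/CpG library edgeR gave 0.87 with an adjusted p of 0.136. Anxa1 did not pass the filter on low counts. Its UMIs were 7 and 41 in effector-marked cells of the anti-OX40/CpG and PDOX libraries and 1 and 2 in naive-marked ones. S100a4, Anxa1 and Anxa2 (58 UMIs in all naive-marked CD8 and 18 in all naive-marked CD4 T cells) had so few UMIs in naive-marked cells that the filter could be met by the effector-marked sums alone, and none of them passed it between the naive-marked classes. With no filter, 9 of all 10 genes were called in each lineage.

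**Figure D3:**
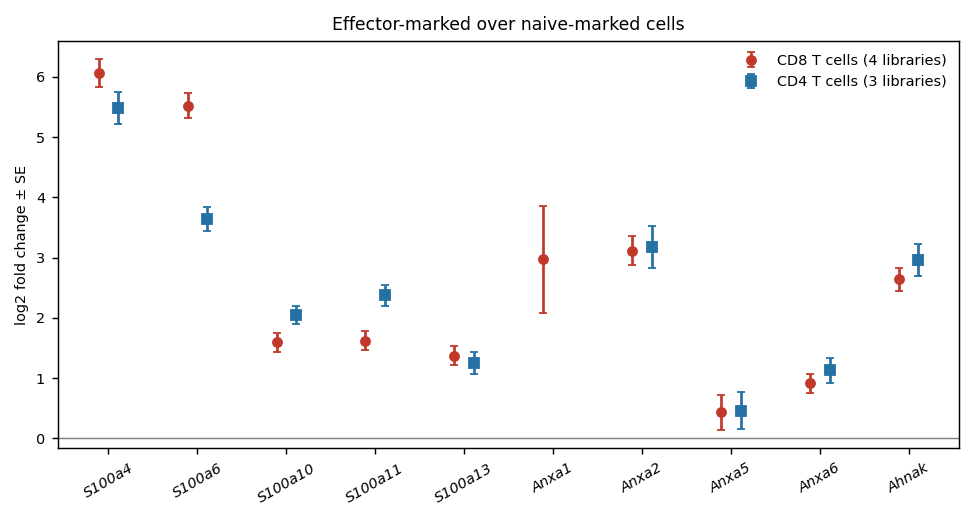
Log2 fold change of effector-marked over naive-marked cells for each gene in CD8 T cells (4 libraries) and CD4 T cells (3 libraries), with standard errors as bars and a line at 0. S100a4 changed most (6.06 in CD8 and 5.48 in CD4 T cells), Anxa5 changed least (0.43 and 0.46, not called), and Anxa1 is shown for CD8 T cells only.

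The change between classes was compared between lineages by an interaction term. Of the 10 genes, 2 differed, against 0.378% of 5293 genes. The increase of S100a6 was larger in CD8 than in CD4 T cells by 1.65 ± 0.30 (edgeR, adjusted p = 6.5e-05), and that of S100a11 was smaller by 0.92 ± 0.22 (edgeR interaction term of −0.92, adjusted p = 0.011). DESeq2 called neither (adjusted p = 1 and 0.476), nor did a fit without the library term, and S100a6 was not called without the PDOX library (1.44; edgeR, adjusted p = 0.091). S100a11 was not called without the anti-PD-L1 (−0.72) or the anti-OX40/CpG library (−0.90). For S100a4 the difference between lineages was 0.27 ± 0.44 and for Anxa2 −0.08 ± 0.44, and neither was called.

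Taken whole, the CD8 and CD4 T cell gates differed for 2 of 9 genes tested, against 6.64% of 6011 genes. S100a4 was lower in CD8 than in CD4 T cells by a log2 fold change of −0.70 ± 0.12 (edgeR, adjusted p = 1.8e-05), with means of 4.26 and 7.58 UMIs per 10000, but it was lower in 3 of 4 libraries. This call was lost with DESeq2 (−0.62, adjusted p = 1) and without the anti-OX40/CpG library (−0.53; edgeR, adjusted p = 0.25). Anxa5 was lower in CD8 T cells in 4 of 4 libraries, by −1.04 ± 0.17 (edgeR, adjusted p = 6.0e-06), with means of 0.693 and 1.49. Without the anti-PD-L1 library, S100a6 (−0.32), S100a10 (−0.40) and S100a11 (−0.38) were called lower in CD8 T cells as well. In effector-marked cells alone, 0 of 9 genes were called in edgeR between the lineages, against 2.31% of 3416 genes, while 378 of those genes had an unadjusted p under 0.05. Anxa5 was nearest, at −0.94 ± 0.30 (edgeR, adjusted p = 0.091), and with at least 2 coreceptor UMIs per cell it was called (−1.33; edgeR, adjusted p = 0.036). Between naive-marked CD8 and CD4 T cells, 3 of 7 genes were called, against 8.29% of 4368 genes: S100a6 (−1.09 ± 0.22; edgeR, adjusted p = 4.0e-05) and Anxa5 (−0.94 ± 0.22) were lower and S100a11 (0.47 ± 0.13) higher in CD8 T cells. DESeq2 called none of these 3 (adjusted p = 1, 0.219 and 0.578), S100a6 was not called without the PDOX library (−0.59; edgeR, adjusted p = 0.247), and S100a11 was not called without the untreated (0.39), the anti-PD-L1 (0.23) or the anti-OX40/CpG library (0.60).

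NK cells, cytotoxic lymphocytes without a T cell receptor, had a different balance of these genes. In libraries with 8, 4, 26 and 10 NK cells, Anxa2 held 17, 13.5, 9.67 and 10.1 UMIs per 10000 and S100a4 held 0.895, 2.25, 2.66 and 1.89. All Anxa2 levels of NK cells were above all those of CD8 T cells, effector-marked ones included, while the S100a4 levels were below every effector-marked CD8 value. S100a6 held 10.7, 13.5, 30.9 and 36, and here the PDOX library was above the untreated one as in T cells. The anti-PD-L1 library, with 4 cells, was left out of the tests.

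Against CD8 T cells, 5 of 10 genes were called in NK cells (7.62% of 3965 genes), where the median over all genes was −0.22. Anxa1 was higher by 4.30 ± 0.67 (edgeR, adjusted p = 8.4e-09), Anxa2 by 3.32 ± 0.32 (edgeR, adjusted p = 6.9e-23), S100a6 by 1.70 ± 0.26 and Ahnak by 1.61 ± 0.32, each in 3 of 3 libraries. In the libraries tested, Anxa1 held 2, 9 and 7 UMIs in NK and 3, 6 and 14 in CD8 T cells. The filter on low counts could thus be met for Anxa1 by the NK cell sums alone. S100a4 was lower by −1.29 ± 0.41 (edgeR, adjusted p = 0.027), a call lost with DESeq2 (adjusted p = 0.508), in thinned cells (−0.39), without the anti-OX40/CpG library (−2.07) and without the PDOX library (−0.70). The call of Ahnak was lost without the anti-OX40/CpG library (1.09) and that of S100a6 in a fit with no library term (1.57). Compared with effector-marked CD8 T cells, 2 of 8 genes were called (19.8% of 525 genes): S100a4 was lower by −2.70 ± 0.30 (edgeR, adjusted p = 1.1e-05; means 2.05 and 14.8) and Anxa2 higher by 2.08 ± 0.25 (edgeR, adjusted p = 3.1e-05; means 13.7 and 2.63), each in 3 of 3 libraries. S100a6 (0.29 ± 0.17), S100a10 (−0.16 ± 0.17), S100a11 (0.01 ± 0.21), S100a13 (0.31 ± 0.24) and Anxa6 (−0.52 ± 0.32) were not called, nor was Ahnak (0.63 ± 0.27). Ahnak was called higher with mitochondrial, ribosomal and hemoglobin genes kept (0.81; edgeR, adjusted p = 0.03) and with Lgals1 and Cd44 added to the effector genes (0.82; edgeR, adjusted p = 0.013).

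Monocytes held more of S100a4, S100a6, S100a11, Ahnak and all annexins but Anxa6 than the whole CD8 T cell gate. Over the 4 libraries, 9 of 10 genes were called against CD8 T cells, read against 32.8% of 4734 genes and a median of −0.13. Anxa1 was higher by 5.43 ± 0.36 (edgeR, adjusted p = 3.8e-33), Anxa2 by 3.23 ± 0.22, Anxa5 by 2.73 ± 0.26, S100a4 by 2.47 ± 0.26 (edgeR, adjusted p = 7.3e-17), S100a6 by 2.19 ± 0.24, Ahnak by 1.27 ± 0.23 and S100a11 by 1.15 ± 0.20. S100a6 was higher in 3 of 4 libraries and the others in 4 of 4. Anxa1 held 108 UMIs in all monocytes and 26 in all CD8 T cells, so few that the monocyte sums alone could meet the filter on low counts. S100a11 was not called without the cells with the most UMIs (0.69). S100a10 (−0.52 ± 0.19; edgeR, adjusted p = 0.022) and Anxa6 (−0.82 ± 0.25; edgeR, adjusted p = 0.006) were lower in monocytes, and neither was called with DESeq2 (adjusted p = 0.229 and 0.068) or without the PDOX library. S100a10 was also not called without the anti-PD-L1 library (−0.45). S100a13 did not pass the test (−0.28 ± 0.23).

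The order of the libraries was reversed in monocytes for S100a4. It held 27.9, 22.2, 15.1 and 8.91 UMIs per 10000, a PDOX to untreated ratio of 0.319 (0.222 to 0.456). S100a6 held 28.3, 31.7, 31.1 and 15.2, a ratio of 0.535 (0.393 to 0.733), with PDOX below the other 3 libraries. These were the 2 of 10 genes with a ratio interval below 1, against 7.03% of 725 genes. The monocyte gate held 10, 27, 17 and 30 cells. Ly6c2, which marks classical monocytes, held 9.31, 28, 9.4 and 7.03 UMIs per 10000 there, and Fcgr4, which marks non-classical ones, 1.86, 4.48, 2.35 and 5.78. Other genes of non-classical monocytes did not share this order. Ace held 2.24, 3.75, 2.35 and 2.66, Nr4a1 3.35, 3.96, 1.04 and 3.13, and Treml4 2.98, 3.23, 1.57 and 2.34. Of these genes Fcgr4 alone was highest in PDOX. Lyz2, a marker of the gate, had the same library order as S100a4, at 372, 263, 201 and 174 UMIs per 10000, and was detected in 80%, 100%, 58.8% and 83.3% of the cells. The NK cell gene Klrb1c was detected in 23.5% of the anti-OX40/CpG cells and in 10%, 0 and 6.67% of the untreated, anti-PD-L1 and PDOX cells. The part of monocyte subtypes and of the make-up of the gate in this difference was not tested.

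**Figure D4:**
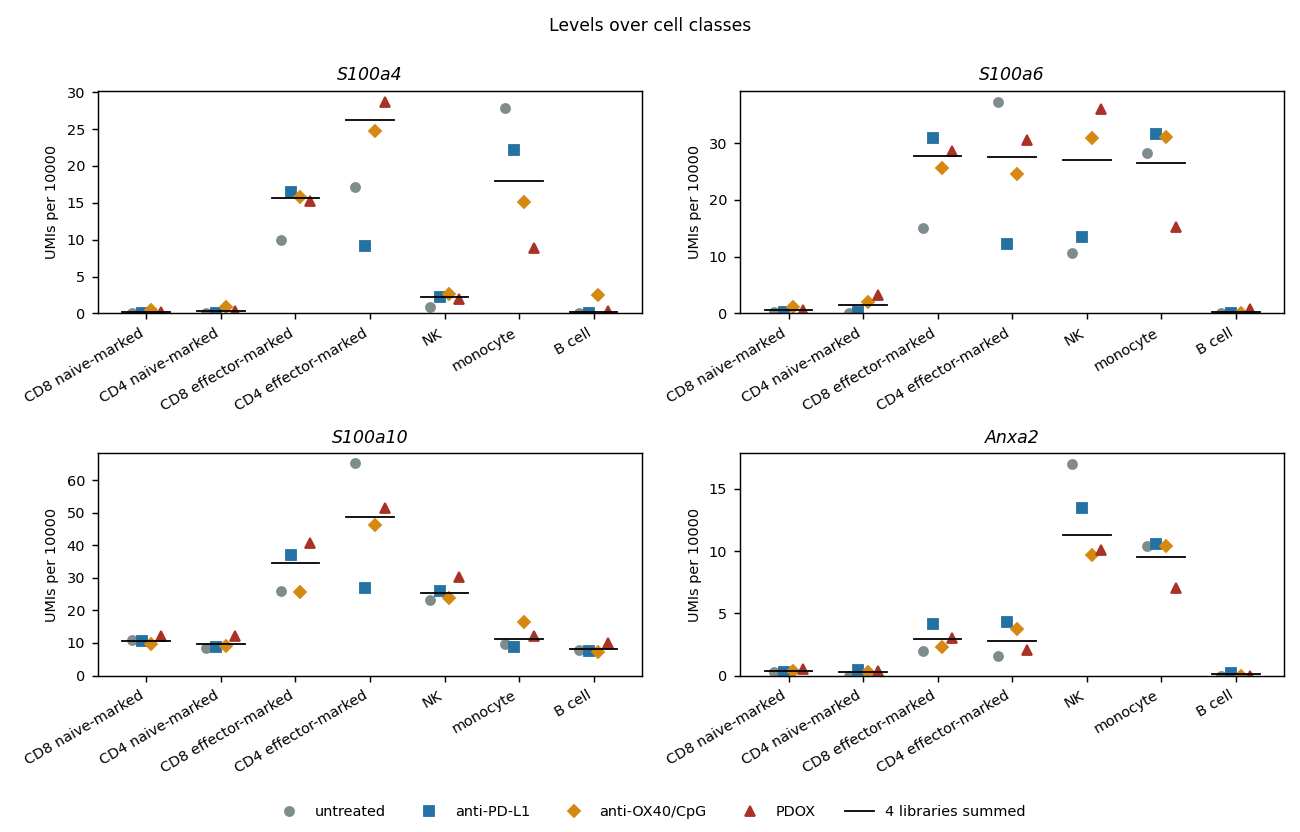
Level (UMIs per 10000, linear axis from 0) of S100a4, S100a6, S100a10 and Anxa2 in naive-marked and effector-marked T cells, NK cells, monocytes and B cells, with 1 point per library and a line for the 4 libraries summed. For S100a4 the effector-marked T cells (9.10 to 28.7) share the range of monocytes (8.91 to 27.9) and lie above NK cells (0.895 to 2.66), whereas for Anxa2 the NK cells (9.67 to 17) lie with the monocytes (7.03 to 10.6).

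Ordered by level, S100a4 was found in monocytes (8.91 to 27.9 UMIs per 10000 over the libraries), effector-marked CD4 T cells (9.10 to 28.7) and effector-marked CD8 T cells (9.99 to 16.5), whose ranges overlapped, then in NK cells and last in naive-marked T cells (0 to 0.859). For S100a6, NK cells (10.7 to 36), monocytes (15.2 to 31.7) and both effector-marked classes (12.3 to 37.3) overlapped. For Anxa2, NK cells and monocytes overlapped, and every effector-marked T cell value (1.55 to 4.28) was lower. Anxa1 was highest in monocytes (2.81 to 6.26) and NK cells (1.13 to 4.42), then in effector-marked CD4 T cells of the PDOX library (1.85), and had 0 UMIs in 84 B cells, which allows a share of cells with an Anxa1 UMI of up to 3.57% (3 cells; the Clopper-Pearson upper limit is 4.3%) at their median of 1123 UMIs. S100a10 lay between 23.3 and 65.3 in NK and effector-marked T cells and between 7.37 and 16.5 in naive-marked T cells, B cells and monocytes.

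Markers of other cells were read in the T cell gates. The 5 neutrophil genes, S100a8 and S100a9 among them, summed to 0.0609, 0.133, 0.0675 and 0.152 UMIs per 10000 in CD8 and to 0, 0.201, 0.0814 and 0.134 in CD4 T cells, with 0 to 4 of the 5 detected in a library. The 10 monocyte genes summed to 4.97, 4.4, 3.55 and 4 in CD8 and 5.50, 5.18, 4.50 and 3.92 in CD4 T cells, highest in the untreated library, and the defining marker Csf1r had 4 UMIs in all CD8 and 1 in all CD4 T cells. The 8 NK cell genes had the library order of S100a6 in CD8 T cells, at 0.183, 0.623, 1.14 and 1.71 UMIs per 10000, with Ncr1 at 0 in the untreated and PDOX libraries. They were 0.109 to 0.376 in CD4 T cells, and their part in the result was not tested. The 4 platelet genes were highest in PDOX, at 0.474 in CD8 and 0.511 in CD4 T cells, with 0.0543 to 0.292 in the other libraries, and their part was not tested either. The 3 regulatory T cell genes held 0.549, 0.61, 0.833 and 1.13 in CD8 and 0.772, 1.61, 2.55 and 2.2 in CD4 T cells, lowest in the untreated library, and their part was not tested. The 5 B cell genes stayed at or below 0.965. Erythroid genes stood at 89.3 UMIs per 10000 in the CD8 T cells of the anti-OX40/CpG library and at 1.26 to 7.98 in those of the other libraries, but hemoglobin genes were left out of all levels. Among CD4 T cells, 10 effector-marked cells had a UMI of Foxp3, the regulatory T cell factor, and held 31.7 S100a4 UMIs per 10000 against 25.8 in the 188 without. The libraries did not share this order: 5 such cells held 46 against 22.6 in the anti-OX40/CpG library, 4 held 17.1 against 29 in PDOX and 1 held 7.78 against 23.3 in the untreated library.

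Other genes of the same systems were read from lists. The lists were chosen with results known. Of 22 other S100 and annexin genes, Anxa7 and Anxa11 had enough UMIs in the T cell classes, and neither was called in either lineage. Among 12 genes of AHNAK-associated membrane repair, 8 were tested and 1 rose in each lineage, against 8.20% of all genes called higher in CD8 and 5.64% in CD4 T cells: Capn2, the catalytic subunit of m-calpain, in CD8 (1.86 ± 0.36; edgeR, adjusted p = 8.0e-06) and Capns1, the small calpain subunit, in CD4 T cells (0.88 ± 0.22; edgeR, adjusted p = 0.0044). Among 7 receptors and ligands, 2 were tested. Ctsb, a cathepsin that can bind S100A10 with annexin A2, rose in CD8 (0.76 ± 0.22) and CD4 T cells (1.08 ± 0.25), against the same 8.20% and 5.64%. Myh9, the non-muscle myosin bound by S100A4, fell by 0.82 in CD4 T cells (−0.82 ± 0.23; edgeR, adjusted p = 0.017), where 5.84% of all genes were called lower. Of 8 cytoskeletal and adhesion genes, 7 were tested. In CD8 T cells 6 rose and in CD4 T cells all 7, against the same 8.20% and 5.64%, with Lgals3 (5.80 and 5.10) and Lgals1 (3.65 and 3.12), both galectins, and Cd44 (2.34 and 1.76), the hyaluronan receptor, ahead of the intermediate filament gene Vim (1.32 and 1.51). Tagln2 changed by 0.06 in CD8 T cells, which was not called, and rose by 0.80 in CD4 T cells.

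Across the 15 sums of library, lineage and marked class, which share libraries and lineages, the levels of S100a4 and S100a6 had a Pearson r of 0.97, as did those of S100a10 and S100a13, while Anxa5 had r between −0.32 and −0.03 with 8 of the others; Anxa1 had too few UMIs to enter. Among 4709 other genes, those most like S100a4 were Gna15 (0.95), Crip1 (0.94), Cdc25b (0.91), Lgals1 (0.91) and Myo1f (0.89). Those most like S100a10 were Lgals1, Crip1 and Srgn (0.95 each), Rac2 (0.94) and Arpc1b (0.92). Anxa2 was most like Myo1f (0.94), Unc119 (0.92), Acot7 (0.92), Cdc25b (0.91) and Pglyrp1 (0.90), and Ahnak most like Lgals1 (0.93), Mapre2 (0.92), Efhd2 (0.92), Pfkp (0.91) and Ppp1r12a (0.91). These are descriptions of 15 points and carry no test.

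Within single cells, the genes were detected together more often than their separate shares would give. The product of the shares of cells with either gene in a library was taken as the value without association, and for several libraries together the cells expected by the product in each library were summed, so that differences in level between libraries do not enter. In CD8 T cells, S100a4 and S100a6 were found together in 197 of 1610 cells (12.2%) against 4.38% by these within-library products, a ratio of 2.79, and 84.5% of the cells with S100a4 also held S100a6. By library, the ratio was 21.3, 6.33, 3.78 and 2.03, the first from 5 cells with both genes. The CD4 T cell ratio was 1.96 (153 of 665 cells, 23% against 11.7%), with 12.8, 6.07, 2.59 and 1.63 in the libraries. The ratio falls where both shares are high, since it cannot exceed the inverse of the larger share.

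The annexin A2 and S100A10 genes showed the same direction with smaller ratios. S100a10 and Anxa2 gave 1.18 in CD8 T cells, where 91.2% of the cells with Anxa2 also held S100a10, and S100a10 and Ahnak gave 1.14. Anxa2 and Ahnak gave 1.83 in CD8 and 2.05 in CD4 T cells, S100a6 and Anxa2 2.25 in CD8 T cells, and S100a11 and Anxa2 1.52. Of the pairs with at least 5 expected cells, 42 of 42 in CD8 and 44 of 44 in CD4 T cells were above the product, with medians of 1.34 and 1.41. Cells with more UMIs hold more genes of any kind, and with each cell thinned to 750 UMIs the medians were 1.36 and 1.32. In thinned cells, 35 of 35 pairs in CD8 and 37 of 39 in CD4 T cells were above the product. Pairs of other genes were not counted, so these counts cannot be read as particular to the genes followed here.

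Inside the marked classes the ratios were closer to 1. The ratio of S100a4 and S100a6 was 1.29 in effector-marked CD8 T cells, and the median over pairs was 1.15 there, 1.06 in effector-marked CD4, 1.17 in naive-marked CD8 and 1.27 in naive-marked CD4 T cells. In thinned cells these medians were 1.08, 1.02, 1.07 and 1.13. At full depth, NK cells gave 1.03 (23 of 33 pairs above the product) and monocytes 1.20 (44 of 45). After thinning, NK cells gave 0.985 (10 of 24) and monocytes 1.18 (25 of 34). In thinned effector-marked CD8 T cells, Anxa2 and Ahnak were found together in 3.97% against a product of 4.85%. The mean number of the 10 genes detected per cell was 2, 2.53, 2.78 and 3.77 in the CD8 T cells and 1.91, 2.13, 3.33 and 4.48 in the CD4 T cells of the 4 libraries. Cells with at least 4 of them made up 13.7%, 22.8%, 29% and 51.2% of CD8 and 11.7%, 15.2%, 36.8% and 61.7% of CD4 T cells, and 5.29%, 7.38%, 15.4% and 31.7% and 6.06%, 7.2%, 25.6% and 48.6% after thinning.

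**Figure D5:**
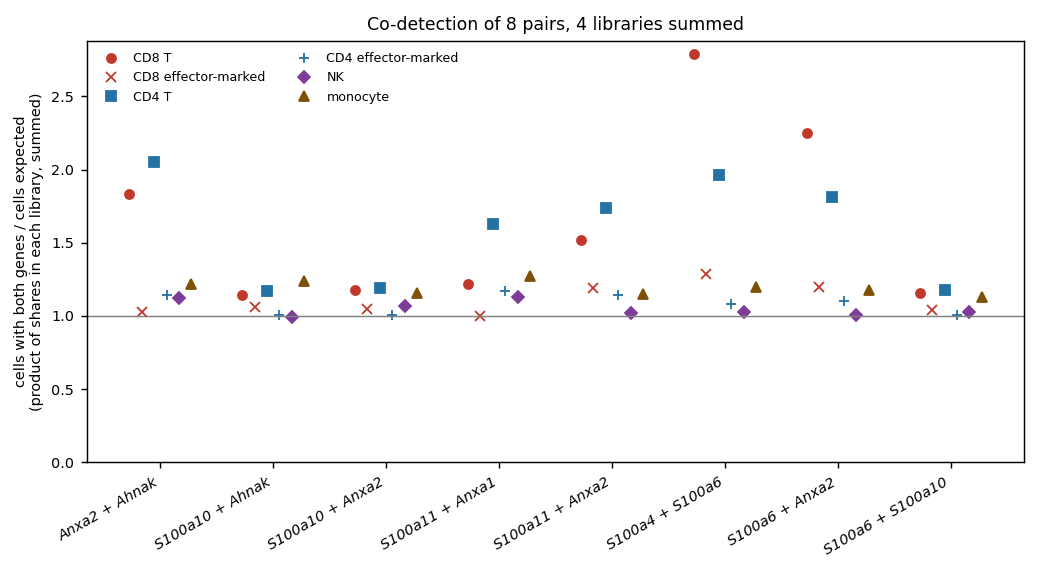
Number of cells with UMIs of both genes divided by the number expected, which is the product of the separate shares taken within each library and summed over the 4 libraries (linear axis from 0; the line at 1 marks no association) for 8 pairs in CD8 T, CD4 T, effector-marked and NK cells and monocytes. S100a4 with S100a6 stands at 2.79 in CD8 T cells and at 1.29 in effector-marked CD8 T cells, and the ratios of NK cells lie between 0.992 and 1.13.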

How the data were processed

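The authors sequenced 3′ libraries of blood T cells, ran Cell Ranger 2.1.1 on mm10 per the labels and deposited counts, whole UMIs per gene and cell with no normalization. Libraries held 2392650 to 4969885 UMIs. How reads shared by related genes were counted is not given in the sources used here. Here, cells with 200 or more genes were kept with no doublet caller, and genes of mitochondria (13), ribosomes (102) and hemoglobin (10) were dropped. The T cell gates allowed fewer than 2 B cell and fewer than 2 myeloid markers. Levels are UMIs of a gate per 10000, with exact Poisson, Clopper-Pearson and conditional binomial intervals at 95%. UMIs were summed per library and class (at least 5 cells) and compared with edgeR 4.0.16 (TMM, filter on low counts, quasi-likelihood test, library as a block, Benjamini-Hochberg over all genes, 53 gate and class genes left out) in R 4.3.3, with DESeq2 1.42.0 as an alternative, after tests on simulated data. Genes were called at an adjusted p under 0.05. Named are the 10 listed genes, called genes of 4 lists, and, for S100a4, S100a10, Anxa2 and Ahnak, the 5 genes with the highest correlation of log2(CPM + 1) among those with at least 100 UMIs. Of the alternatives, leaving out CD4 T cells with a Foxp3 UMI and a minimum of 20 cells were added after the data were seen. The members and lists were chosen with earlier results of these data known. The 4 libraries stand for 4 mice per the labels, and classes of a library share its mouse. With the library as a block, p-values measure how the class difference varies between the libraries of a fit, which also differ in treatment.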

Additional observations from a re-analysis of the deposited data

Results flagged for a closer look

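The change from naive-marked to effector-marked cells differed between lineages for S100a6, where the interaction term was 1.65 (edgeR quasi-likelihood test with Benjamini-Hochberg adjustment, adjusted p = 6.5e-05). In naive-marked cells its mean was 0.559 UMIs per 10000 in CD8 and 1.40 in CD4 T cells. By library these levels were 0.24, 0.233, 1.11 and 0.613 in CD8 and 0.104, 0.237, 2 and 3.17 in CD4 T cells. The interaction term of S100a11 was −0.92 (edgeR, adjusted p = 0.011), with means of 3.48 and 2.60 in the naive-marked cells. The untreated library entered both fits without its 4 effector-marked CD4 T cells. Neither term was called with DESeq2 or without the library term, and that of S100a6 was not called without the PDOX library. Of 16 alternatives, 13 kept the call of S100a6 and 9 that of S100a11.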

How the results depend on the processing

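Treatments could not be compared in a paired analysis, because each group has 1 library. Both classes of a library were tied by the library term, so the tests between classes were paired by library. Of the member counts, 132 alternatives stayed within 1.5 times the value reported and 22 did not. The count for CD8 against CD4 T cells (2) was 1 with DESeq2 and 1 with no library term, and 1 to 5 with a library left out. Between effector-marked CD8 and CD4 T cells (0), it was 1 with no filter, 1 with at least 10 cells per class and 1 with at least 2 coreceptor UMIs, and 0 to 1 with a library left out. Between naive-marked CD8 and CD4 T cells (3), it was 0 with DESeq2, 1 with no library term and 1 with 2 coreceptor UMIs, and 2 to 3 with a library left out. For NK against CD8 T cells (5), it was 3 with no library term and 3 in thinned cells, and 3 to 5 with a library left out. For the interaction (2), it was 0 with DESeq2, 0 with no library term, 1 with no filter, 1 in thinned cells and 1 with 2 coreceptor UMIs, and 1 to 2 with a library left out. The cause was not tested. The effector-marked against naive-marked counts ranged from 8 to 9 in CD8 and from 6 to 9 in CD4 T cells, where 2 coreceptor UMIs leave 2 libraries. Of the members' log2 fold changes, 1110 kept their side of the threshold, 45 lost and 13 gained a call, and none called reversed. Of those that kept their side, 582 were called in neither fit, 66 of them with the other sign. The Anxa2 ratio of PDOX to untreated CD4 T cells reversed to 0.605 with no limit on B cell and myeloid markers. Counts of called genes over all genes moved more. Between effector-marked and naive-marked cells they ranged from 321 to 949 in CD8 (762 reported) and from 53 to 505 in CD4 T cells (358). For CD8 against CD4 they ranged from 89 to 521 in all T cells (399), from 7 to 117 in effector-marked (79) and from 90 to 483 in naive-marked cells (362). For NK cells they ranged from 110 to 435 against CD8 T cells (302) and from 31 to 185 against effector-marked ones (104), for monocytes from 584 to 1777 (1555), and for the interaction from 1 to 37 (20). At levels below 1 UMI per 10000, as for Anxa1 and Anxa5 in CD8 and Anxa2 in untreated T cells, depth limits what single libraries show.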
